A study of Mus musculus with 16 samples.

Results

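The genes described here are 10 immediate-early response genes of the mouse liver: Dusp1, Zfp36, Zfp36l1, Btg2, Fos, Jun, Junb, Egr1, Klf6 and Ier2. They were taken by name, through their Ensembl identifiers, from a table of 13006 genes, and all 10 were present and passed the filter on low counts, as did 12918 genes in all. Messenger RNA was measured by poly(A) sequencing of liver from mice labelled Humanized PXR-CAR-CYP3A4/3A7, in which human xenobiotic receptors and drug-metabolising enzymes stand in for mouse ones. Every group shares this genotype, and the labels used here give neither age nor sex. The EM group was given the estrogen ethinylestradiol (EE), known to cause cholestasis in rodents, subcutaneously at 10 mg/kg for 7 days, together with MI763F, a ligand of the receptor CAR, by gavage at 2.5 mg/kg for 6 days from day 2. EV is EE alone, CM is MI763F alone, and CV is the propylene glycol vehicle. Each group held 4 libraries, and the labels do not say that each came from a separate animal. P-values therefore speak of the variation among these libraries, which may be technical. Whether mice without MI763F were gavaged with its oral vehicle is not given in the sources used here.

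Immediate-early genes are transcribed within minutes of a stimulus, without the need for new protein synthesis, when kinase cascades activate factors such as SRF and CREB that already sit at their promoters. Their products include the AP-1 and EGR transcription factors and a set of brakes on the same response: a phosphatase that switches off MAP kinases, RNA-binding proteins that speed mRNA decay, and an antiproliferative cofactor. The messages are short-lived, and in liver they are known to respond to growth factors, hormones, injury, fasting and refeeding, and tissue handling.

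The members were chosen by symbol, in a list proposed with earlier results of these data known, and the value that drew attention to them was the higher Dusp1 level in CM than in CV. Values of that comparison are therefore given as a description. The number of members that the fit over all genes called there is printed beside its share of all genes, and is no test of the list. Its values under other settings are given further on, and nothing is read from them. EM vs EV shares no library with CM vs CV. EV vs CV and EM vs CV share the CV libraries with it, and EM vs CM shares the CM libraries. Levels are given as CPM (counts scaled to a common library total), which are not scaled by gene length, so they are compared between libraries and not between genes.

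The promoters of 5 of the genes are shown as examples of the binding motifs by which this class of genes is known. The choice does not set these 5 apart. All 10 genes had their highest group mean in CM, and Junb, which is not shown, also holds such a motif. Each is the stretch of 250 bases before the start site, from RefSeq on build GRCm38.p6, which is earlier than the GRCm39 build the submitters' processing notes name. Capitals mark matches to the cAMP response element (CRE) TGACGTCA, its core TGACG and the SRF-bound CArG box, on either strand. They also mark a loosened AP-1 pattern, TGANTCA, which takes any base at N.
Dusp1, chr17:26508473-26508722, minus strand: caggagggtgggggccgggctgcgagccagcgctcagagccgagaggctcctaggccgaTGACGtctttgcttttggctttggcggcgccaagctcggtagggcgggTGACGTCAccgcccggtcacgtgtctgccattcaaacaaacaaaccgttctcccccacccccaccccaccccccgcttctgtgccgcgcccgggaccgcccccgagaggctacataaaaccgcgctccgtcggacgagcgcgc
Btg2, chr1:134079156-134079405, minus strand: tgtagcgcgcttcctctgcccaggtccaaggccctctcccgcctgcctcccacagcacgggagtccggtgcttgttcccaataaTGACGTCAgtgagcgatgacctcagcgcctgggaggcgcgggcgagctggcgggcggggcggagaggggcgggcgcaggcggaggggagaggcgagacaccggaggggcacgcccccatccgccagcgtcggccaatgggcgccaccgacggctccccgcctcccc
Fos, chr12:85473640-85473889, plus strand: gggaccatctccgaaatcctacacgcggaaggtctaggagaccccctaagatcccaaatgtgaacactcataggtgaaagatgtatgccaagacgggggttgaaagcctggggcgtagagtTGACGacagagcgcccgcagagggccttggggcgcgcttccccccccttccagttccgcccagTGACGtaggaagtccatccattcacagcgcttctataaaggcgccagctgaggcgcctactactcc
Zfp36, chr7:28379229-28379478, minus strand: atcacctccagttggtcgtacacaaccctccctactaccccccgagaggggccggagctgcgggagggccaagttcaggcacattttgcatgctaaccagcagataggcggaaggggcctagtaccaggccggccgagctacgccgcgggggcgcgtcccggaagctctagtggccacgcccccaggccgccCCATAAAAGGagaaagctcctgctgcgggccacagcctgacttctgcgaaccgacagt
Zfp36l1, chr12:80113014-80113263, minus strand: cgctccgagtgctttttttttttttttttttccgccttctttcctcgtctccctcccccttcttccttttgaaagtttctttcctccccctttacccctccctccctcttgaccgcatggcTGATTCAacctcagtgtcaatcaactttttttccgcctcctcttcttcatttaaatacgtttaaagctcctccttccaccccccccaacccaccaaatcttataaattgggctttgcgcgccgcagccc
The 8 genes searched were the members except Ier2, for which no promoter entry was found, and Egr1, whose promoter was not used. Among these 8, Dusp1 and Btg2 held the full CRE, at -143 and -166 bases from the start. A full CRE was held by 1.55% of all 32851 promoter windows of this length. The core, which each full CRE contains on both strands, was found in 4 of the 8 (Dusp1, Btg2, Fos and Junb) and in 17.8% of all windows. The CArG match of Zfp36 began at -58, against 1.47% of all windows with such a match. The match of Zfp36l1 to the loosened AP-1 pattern began at -129, against 6.75% of all windows. Its central base is T, so it matches the loosened pattern and not the strict AP-1 site. A match is a run of letters and was not tested as a binding site.

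Libraries held 14115384 to 21473227 estimated counts, of which the 10 genes had between 28 and 4385 counts each. The first principal component (48.3% of the variance) divided the 8 libraries with EE from the 8 without, and on the second (6.17%) CM replicate 2 stood apart, with a score of -58.9 where CM replicates 1, 3 and 4 scored -16.1 to -7.98. CV replicates 1 and 2 also stood apart there, at 35.6 and 45.2, where CV replicates 3 and 4 scored 1.13 and 1.47. All 7 measured hepatocyte markers were present in every library, and their summed level was 37220 to 56330 CPM in EM, 32550 to 39700 in EV, 87800 to 114800 in CM and 89840 to 116500 in CV. Macrophage markers summed to 1693 to 2828 CPM in EM and 2042 to 2397 in EV, against 350 to 729 in CM and 344 to 877 in CV; 10 of 11 were called higher and 0 lower both in EM vs CM and in EV vs CV. Of the endothelial markers 3 of 9 were called higher in EM vs CM and 6 of 9 in EV vs CV. Lymphoid and neutrophil markers summed to 63.2 to 158 CPM in EM, 72.6 to 159 in EV, 24.4 to 56.7 in CM and 10.7 to 27.7 in CV, with 2 of 8 called higher in EM vs CM, 6 of 8 in EM vs CV and 5 of 8 in EV vs CV. Of all genes 19.4% were called higher in EM vs CM, 20.7% in EM vs CV and 25.5% in EV vs CV. The 2 of 8 lymphoid and neutrophil markers in EM vs CM are near that share. The part of these marker shifts in the comparisons of EE with no EE was not tested. Immediate-early genes are expressed by these cells too, and in bulk tissue fewer cells of a type and less RNA per cell cannot be told apart.

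Dusp1, which encodes a nuclear phosphatase that inactivates p38, JNK and ERK, had 28.0, 48.6, 29.8 and 27.2 CPM in EM, 31.8, 26.8, 36.2 and 22.6 in EV, 39.5, 73.3, 93.5 and 47.5 in CM, and 21.3, 18.3, 20.8 and 26.8 in CV. All 4 CM libraries lay above all 4 CV libraries, while the EM and EV libraries overlapped. CM averaged 63.5 ± 25 CPM and CV 21.8 ± 3.6 CPM (SD, n = 4 each), a log2 fold change of 1.54 ± 0.26 (SE), or 2.91-fold. During EE treatment the difference between EM and EV was 0.19 ± 0.26 on the log2 scale (EM 33.4 ± 10 and EV 29.4 ± 5.9 CPM; edgeR adjusted p = 0.848), with an interval from -0.36 to 0.74.

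The RNA-binding brakes were likewise highest in CM. Zfp36 encodes tristetraprolin, which binds AU-rich elements and promotes decay of the bound mRNA. It had 42.8, 67.8, 51.5 and 43.7 CPM in EM, 58.4, 29.9, 42.7 and 54.2 in EV, 121, 254, 283 and 116 in CM, and 72.3, 71.2, 61.6 and 81.8 in CV. The CM libraries were the 4 highest of all 16. Its log2 fold change was 1.43 ± 0.29 in CM vs CV and 0.15 ± 0.29 in EM vs EV (adjusted p = 0.902). With EE alone it was the one gene of the 10 whose 4 libraries all lay below the CV libraries, at -0.63 ± 0.29 (edgeR adjusted p = 0.0809).

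Zfp36l1, a paralog of Zfp36 with the same kind of RNA-binding domain, had the smallest spread between replicates. It measured 130, 154, 179 and 127 CPM in EM, 137, 121, 123 and 163 in EV, 224, 276, 320 and 181 in CM, and 98.1, 112, 132 and 140 in CV. Again each CM library exceeded each library of every other group. The log2 fold change was 1.06 ± 0.17 in CM vs CV and 0.11 ± 0.17 in EM vs EV (adjusted p = 0.869). Btg2, an antiproliferative cofactor that binds the CCR4-NOT deadenylase, ranged from 29.4 to 85.9 CPM in EM, 33.4 to 61.8 in EV, 67.4 to 218 in CM and 13 to 89.9 in CV. Its groups overlapped in every comparison, and the CV range alone covered all the EM and EV libraries. The log2 fold change was 1.37 ± 0.52 in CM vs CV and 0.26 ± 0.51 in EM vs EV (edgeR adjusted p = 0.903).

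**Figure D1:**
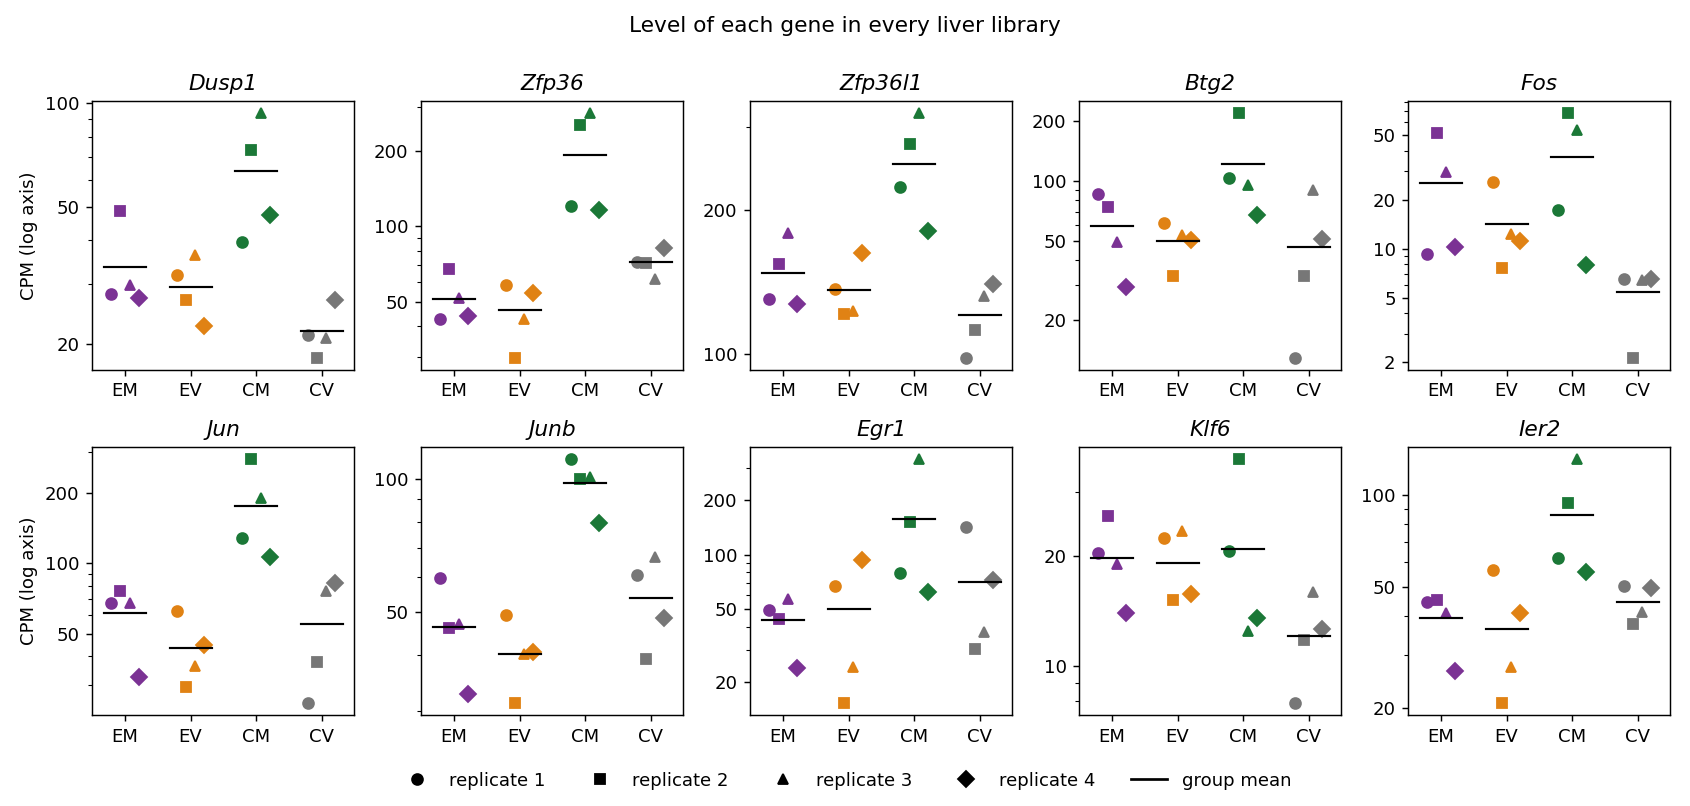
CPM of each of the 10 genes on a log axis in every library of EM (EE with MI763F), EV (EE alone), CM (MI763F alone) and CV (vehicle); symbols are replicates and bars are group means. The CM mean is the highest for each gene, and CM replicates 2 and 3 hold the highest value of 9 of the 10.

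The AP-1 subunits differed in how tightly they were measured. Fos, the dimer partner that must pair with a Jun protein, had 9.29, 51.7, 29.7 and 10.3 CPM in EM, 25.7, 7.59, 12.3 and 11.2 in EV, 17.3, 67.9, 53.7 and 7.94 in CM, and 6.55, 2.14, 6.39 and 6.54 in CV. CV held the 4 lowest values of all, and CM spread from 7.94 to 67.9 CPM within one group. Its log2 fold changes were 2.75 ± 0.75 in CM vs CV, 2.21 ± 0.74 in EM vs CV and 1.39 ± 0.73 in EV vs CV, and EM vs EV gave 0.83 ± 0.69 (adjusted p = 0.708).

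Jun, the core AP-1 subunit, had 67.3, 76.4, 67.9 and 32.7 CPM in EM, 62.4, 29.5, 36.5 and 44.6 in EV, 128, 280, 190 and 106 in CM, and 25.2, 37.7, 75.8 and 82.0 in CV. The CM libraries were the 4 highest of 16, at a log2 fold change of 1.67 ± 0.42 over CV. The value in EM vs EV was 0.50 ± 0.41 (adjusted p = 0.696). Junb, a Jun family member that often opposes Jun, had 59.8, 46.1, 47.1 and 32.7 CPM in EM, 49.2, 31.2, 40.3 and 40.6 in EV, 111, 100, 101 and 79.4 in CM, and 60.7, 39.3, 66.8 and 48.6 in CV. It is the only one of the 10 whose highest value lay in CM replicate 1, and its CM libraries also stood clear of every other group. CM exceeded CV by 0.86 ± 0.19 on the log2 scale, and EM vs EV gave 0.20 ± 0.19 (adjusted p = 0.749).

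Egr1 and Klf6 encode zinc finger transcription factors, and Ier2 a small nuclear protein. Egr1 ranged from 23.6 to 57.1 CPM in EM, 15.2 to 93.8 in EV, 62.5 to 338 in CM and 30.3 to 142 in CV. CM vs CV was 1.16 ± 0.68, with overlapping groups, and it dropped to 0.47 when CM replicate 3 was left out. Klf6 ranged from 14 to 25.7 CPM in EM, 15.2 to 23.5 in EV, 12.5 to 37.0 in CM and 7.90 to 15.9 in CV. Its CM value rested on CM replicate 2, since CM vs CV was 0.79 ± 0.32 with that library and 0.36 without it. Ier2 ranged from 26.5 to 45.3 CPM in EM, 20.8 to 56.5 in EV, 55.9 to 131 in CM and 37.7 to 50.1 in CV, and CM vs CV was 0.94 ± 0.31 with no overlap. In EM vs EV the 3 genes had log2 fold changes of -0.20 ± 0.67 (Egr1), 0.04 ± 0.31 (Klf6) and 0.11 ± 0.31 (Ier2), with edgeR adjusted p-values of 0.946, 0.978 and 0.933.

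Read together, the 10 genes had log2 fold changes of 0.79 to 2.75 in CM vs CV, with a median of 1.26, against a median of -0.003 over all 12918 genes and 0.66 at their 95th percentile. The groups did not overlap for 7 of the 10 in the upward direction, against 2.24% of all genes. The edgeR fit over all genes called 2 of them (Dusp1 and Zfp36l1) and 0.0929% of all genes as higher. Nothing is read from these counts, because the list was proposed with this comparison in view. Both calls were lost without any 1 of CV replicates 1, 2 or 3 or CM replicates 2 or 3, and that of Dusp1 also without CV replicate 4. One of CV replicates 1 and 2 held the lowest of the 16 values for 6 of the genes (Dusp1, Zfp36l1, Btg2, Fos, Jun and Klf6). Without CV replicate 1 the log2 fold changes of these 6 were 1.53, 0.97, 1.06, 2.85, 1.43 and 0.64, in that order, and without CV replicate 2 they were 1.47, 1.02, 1.24, 2.50, 1.53 and 0.78. That of Egr1, whose highest CV library was replicate 1, was 1.75 without it, against 1.16 with all libraries. The lymphoid and neutrophil markers had a median log2 fold change of 0.88 in the same comparison, with 8 of 8 above 0 and 0 called by edgeR. Their part in the result was not tested. Macrophage markers had a median of -0.10 there, with 0 of 11 called.

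In EE-treated mice no difference between MI763F and no MI763F was detected for these genes. In EM vs EV 0 of 10 passed edgeR's test with Benjamini-Hochberg adjustment, against 1.69% of all genes. An unadjusted p under 0.05 was reached by 0 of 10, against 12.7% of all genes, and DESeq2 and limma-trend also called 0. No gene of the 10 had groups without overlap, against 6.56% of all genes with EM higher and 3.98% with EM lower. The adjusted p-values lay between 0.696 and 0.978. The log2 fold changes ran from -0.20 (Egr1) to 0.83 (Fos), with a median of 0.17 against -0.002 over all genes. They were above 0 for 9 of the 10 genes, against 49.5% of all genes. That of Fos was 0.21 without EM replicate 2 and 1.28 without EV replicate 1. For Zfp36l1 the interval was -0.26 to 0.48 and for Junb -0.21 to 0.62, so a log2 fold change of 1 lies outside both. For Fos it was -0.67 to 2.32 and for Egr1 -1.65 to 1.26, so these 2 genes are bounded only loosely at this spread.

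The difference between the effect of MI763F with EE and its effect without EE was negative for all 10 genes, from -1.93 (Fos) to -0.66 (Junb). It contains CM vs CV, so it too is a description. By edgeR 0 of 10 passed for this difference, against 0.132% of all genes, while 4 had an unadjusted p under 0.05, against 13.6%. DESeq2 called 3, against 3.48%. Nothing is read from these counts either. Leaving out CM replicate 4 raised the edgeR count to 1 (Zfp36l1).

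**Figure D2:**
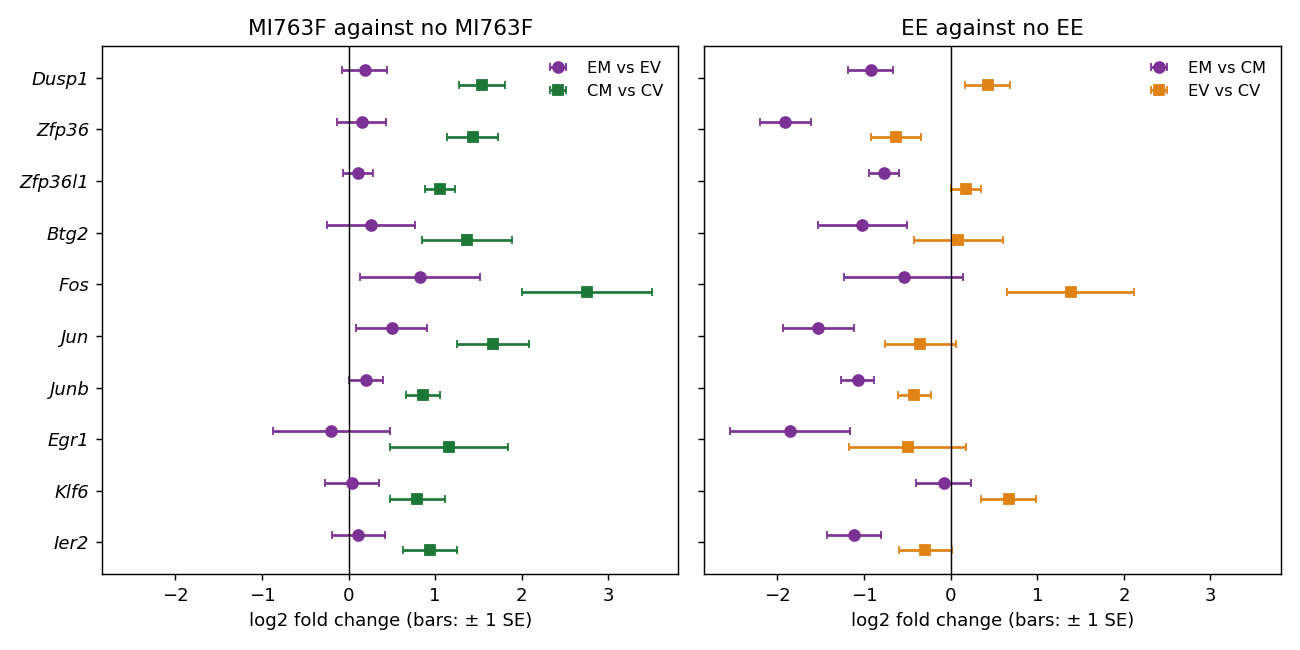
Log2 fold change with its standard error for each gene: left, MI763F against no MI763F with EE (EM vs EV) and without it (CM vs CV); right, EE against no EE with MI763F (EM vs CM) and without it (EV vs CV). In CM vs CV all 10 points lie above 0, from 0.79 to 2.75, and in EM vs EV they lie between -0.20 and 0.83.

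With EE alone none of the 10 genes passed the test, although much of the transcriptome did. In EV vs CV 0 of 10 passed by edgeR, against 50.4% of all genes. These genes spread more widely between replicates (median SD of log2 CPM 0.48, against 0.24 over all genes). A wider spread makes a difference of equal size harder to call, and its part in the count of 0 was not tested. An unadjusted p under 0.05 was reached by Zfp36 and Junb, 2 of 10 against 56% of all genes. DESeq2 called 1 (Zfp36), against 51.7% of all genes. The log2 fold changes were above 0 for 5 genes and below 0 for 5, from -0.63 (Zfp36) to 1.39 (Fos). Fos was higher without overlap (24.6% of all genes were), at 7.59 to 25.7 CPM in EV and 2.14 to 6.55 CPM in CV, but its edgeR adjusted p was 0.135. Zfp36 was lower without overlap, as were 22.7% of all genes. The direction rests on the scaling for some members: with library totals in place of composition factors, which moved the median of all genes by 0.48 on the log2 scale, Jun, Junb and Ier2 turned positive. Dusp1, Zfp36l1, Fos and Klf6 then passed as higher, at 0.90, 0.66, 1.86 and 1.15, as did 54.6% of all genes.

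With MI763F present in both groups, most of the genes had lower levels in EE-treated mice. In EM vs CM all 10 log2 fold changes lay below 0 (that of Klf6 turned to 0.29 with library totals), with a median of -1.05, and the groups did not overlap for 6 (Zfp36, Zfp36l1, Jun, Junb, Egr1 and Ier2), against 16.8% of all genes that were lower without overlap. 7 passed edgeR's test as lower, against 18.6% of all genes, but these counts rest on the CM libraries that belong to the comparison in which the list was proposed, and they are given as a description. Zfp36 differed most, at -1.91 ± 0.29, and Klf6 least, at -0.08 ± 0.32. With library totals 3 passed as lower, against 7.24% of all genes. Among the fits with 1 library left out, Egr1 kept its call only without CM replicates 1 or 4, and its value was -1.16 without CM replicate 3, against -1.85 with all libraries. In EM vs CV 1 gene (Fos) passed as higher, against 20.7% of all genes, and Fos and Dusp1 were higher without overlap, against 19.4%. The call of Fos was lost without EM replicates 2 or 3 or any 1 of the CV libraries.

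In some libraries all or most of the 10 genes lay on the same side of their group means. In CM all 10 lay above their group mean in replicate 2 and 8 of 10 in replicate 3, whereas 2 of 10 did in replicate 1 and 0 in replicate 4. The pattern was similar in the EE groups: all 10 lay above the group mean in EM replicate 2 and in EV replicate 1, and 0 did in EM replicate 4 and EV replicate 2. In CV replicate 4 had 9 of 10 above the mean and replicate 2 had 1. The remaining libraries were mixed, with 6 and 7 of 10 in EM replicates 1 and 3 and 4 and 7 in EV replicates 3 and 4. CV replicates 1 and 3 had 5 and 6. The genes share a library and its scaling factor in each of these counts. The same counts were not made over all genes, so a shift of a whole library is not set apart. Their spread was also wide: the standard deviation of log2 CPM around the group means had a median of 0.48 over the 10 genes and 0.24 over all genes tested. Fos (1.08) and Egr1 (1.00) had wider spread than 95.6% and 95.2% of genes, while Zfp36l1 (0.26) lay near the middle. The median SD of the 10 genes was 0.65 in CM, against 0.38 in EM, 0.41 in EV and 0.38 in CV.

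**Figure D3:**
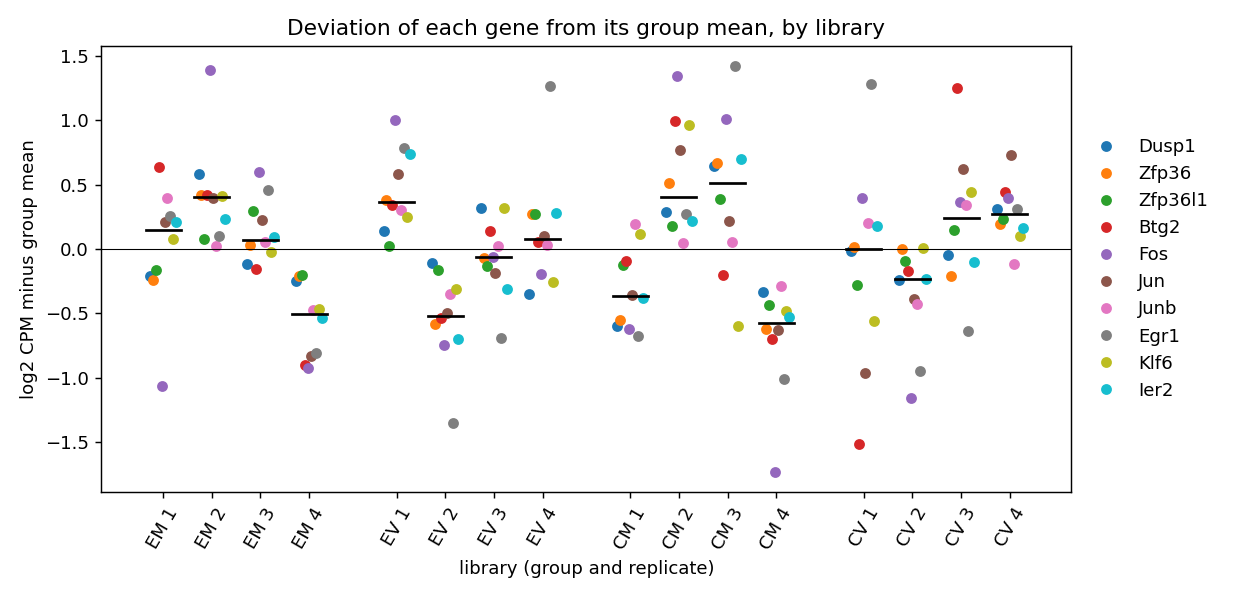
Log2 CPM of each gene minus its group mean, for every library of the 4 groups; the black bars are the median over the 10 genes. CM replicates 2 and 3 lie above their group mean by a median of 0.40 and 0.51, and CM replicates 1 and 4 below it by a median of -0.37 and -0.58.

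Ordered by group mean, CM came first for all 10 genes. For 5 of them (Zfp36, Zfp36l1, Jun, Junb and Ier2) the lowest CM library exceeded the highest library of the next group, and for the other 5 the CM range overlapped that of its neighbour. For Ier2 the next group by mean was CV, and the lowest CM library (55.9 CPM) lay just under the highest EV library (56.5 CPM). The groups below CM overlapped their neighbours in each case but that of Fos, whose EV libraries lay above the CV libraries. For Klf6 the order is not resolved, since EM (19.8 ± 4.8 CPM), EV (19.2 ± 4.4 CPM) and CM (20.9 ± 11 CPM) differed by less than the spread between replicates (SD, n = 4 each).

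Of the 11198 genes whose mean log2 CPM reached 1, the one most like Dusp1 over the 16 libraries was Dusp6, a phosphatase specific for ERK. Likeness was measured as the root mean square difference of centred log2 CPM, which was 0.34 for Dusp6 and 0.34 for Zfp36l1, the next in rank. Dusp6 averaged 59.1 ± 16 CPM in EM, 66.4 ± 12 in EV, 101 ± 39 in CM and 44.2 ± 15 in CV (SD, n = 4 each). Impact (0.43), Irf2bp2 (0.43), Klf11 (0.44) and the receptor Epha2 (0.44) followed. Each had its highest group mean in CM, as Dusp1 did, which the choice by likeness to Dusp1 favours, so nothing is read from it. Of the other members Ier2 ranked 32, Junb 89 and Zfp36 390, whereas Fos and Egr1, with their wider spread, ranked 8918 and 9341.

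The 8 companion lists held 94 further genes, of which 82 were measured. Each list is described by its genes called and its median, with no test of the list itself. In EV vs CV 28 of the 82 rose and 16 fell, which is 34.1% and 19.5% against 25.5% and 24.9% of all genes. With library totals 47 rose and 5 fell, which is 57.3% and 6.10% against 54.6% and 10.3% of all genes. The share called in either direction, 53.7%, is near the 50.4% of all genes, so the counts below describe which genes differed and do not set the lists apart. Of the AP-1 partners 5 of 10 rose and 2 fell: Fosl2, a Fos relative, rose by 1.45 ± 0.26 (edgeR adjusted p = 0.000308) and Jdp2, a repressor of AP-1, by 2.08 ± 0.36 (adjusted p = 0.000201), while the small Maf gene Maff was lower at -1.41 ± 0.26 (adjusted p = 0.000393). The EGR, NR4A, KLF and MYC list had 1 rise, of Myc (1.24 ± 0.27), and 2 falls, of Klf9 (-0.65 ± 0.15) and Nab1 (-0.20 ± 0.067), among 9; with library totals 3 rose and 0 fell. Other early response genes gave 10 rises and 5 falls among 18, with Gadd45g, a stress sensor, at 3.55 ± 0.41, the survival gene Mcl1 at 0.51 ± 0.077, Gadd45b at -2.46 ± 0.34 and the kinase Plk3 at -1.13 ± 0.22. Of the MAP kinase phosphatases 2 of 7 rose, Dusp7 (1.26 ± 0.30) and Dusp10 (0.94 ± 0.36), and Zfp36l2, the other measured paralog of Zfp36, rose by 0.47 ± 0.16.

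Upstream of these genes, 6 of 19 kinases and SRF or CREB factors rose and 2 fell with EE alone, so that 8 of 19 were called, against 50.4% of all genes, and with library totals 15 rose and 0 fell. The ERK kinase gene Map2k1 stood at 1.31 ± 0.098 and the SRF coactivator gene Mrtfa at 1.13 ± 0.24, and the CREB family gene Crem at -0.68 ± 0.13. The other fall was that of Srf itself, at -1.02 ± 0.26 (edgeR adjusted p = 0.00407), which is named after its values were seen. Glucocorticoid-responsive genes gave 2 rises, with the kinase gene Sgk1 at 1.27 ± 0.27, and 5 falls among 11, with Per1 at -0.86 ± 0.17, the metallothionein gene Mt1 at -1.88 ± 0.46 and the glucocorticoid receptor gene Nr3c1 at -0.62 ± 0.097. With library totals this list had 3 rises and 1 fall. Of 7 heat shock genes 1 rose, Hspa1b (1.17 ± 0.35); Hspa1a and Hspa1b are near-identical copies, so the division of reads between them is uncertain.

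With library totals the counts of the remaining lists in EV vs CV were 5 rises and 1 fall for the AP-1 partners, 12 and 3 for other early response genes, 5 and 0 for the phosphatases and 3 and 0 for heat shock genes. The median of the EGR, NR4A, KLF and MYC list turned to 0.05 there, against -0.43 with TMM factors. With MI763F in both groups (EM vs CM) 12 of the 82 companion genes were called higher and 18 lower by edgeR (14.6% and 22% against 19.4% and 18.6% of all genes). With library totals 28 were higher and 9 lower (34.1% and 11% against 45.6% and 7.24%).

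In EM vs EV 0 of the 82 companion genes passed edgeR's test, against 1.69% of all genes, and 8 (9.76%) had an unadjusted p under 0.05, against 12.7%. DESeq2 called 2 higher and 1 lower (3.66% in all, against 4.38% of all genes). The nearest was Gadd45a (1.87 ± 0.45, adjusted p = 0.0556). The companion lists were chosen with earlier results of these data known, so their CM vs CV values are a description from which nothing is read. In CM vs CV 0 of 82 passed by edgeR, and 23 (28%) had an unadjusted p under 0.05, against 10.5% of all genes. DESeq2 called 9 higher and 0 lower (11% and 0% against 1.23% and 0.48%). There 68 of the 82 log2 fold changes lay above 0, including 18 of 18 other early response genes and 7 of 7 MAP kinase phosphatases, against 49.2% of all genes. The list medians in CM vs CV were 0.53 and 0.63 for those lists, 0.49 for the AP-1 partners, 0.46 for heat shock genes, 0.32 for the EGR, NR4A, KLF and MYC list, 0.13 for glucocorticoid-responsive genes and 0.03 for the upstream factors, against 1.26 for the 10 genes themselves. Without CM replicate 2 the medians were 0.57 for other early response genes, 0.37 for the phosphatases, 0.36 for the AP-1 partners, 0.31 for glucocorticoid-responsive genes, 0.20 for heat shock genes, 0.11 for the EGR, NR4A, KLF and MYC list and -0.001 for the upstream factors.

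**Figure D4:**
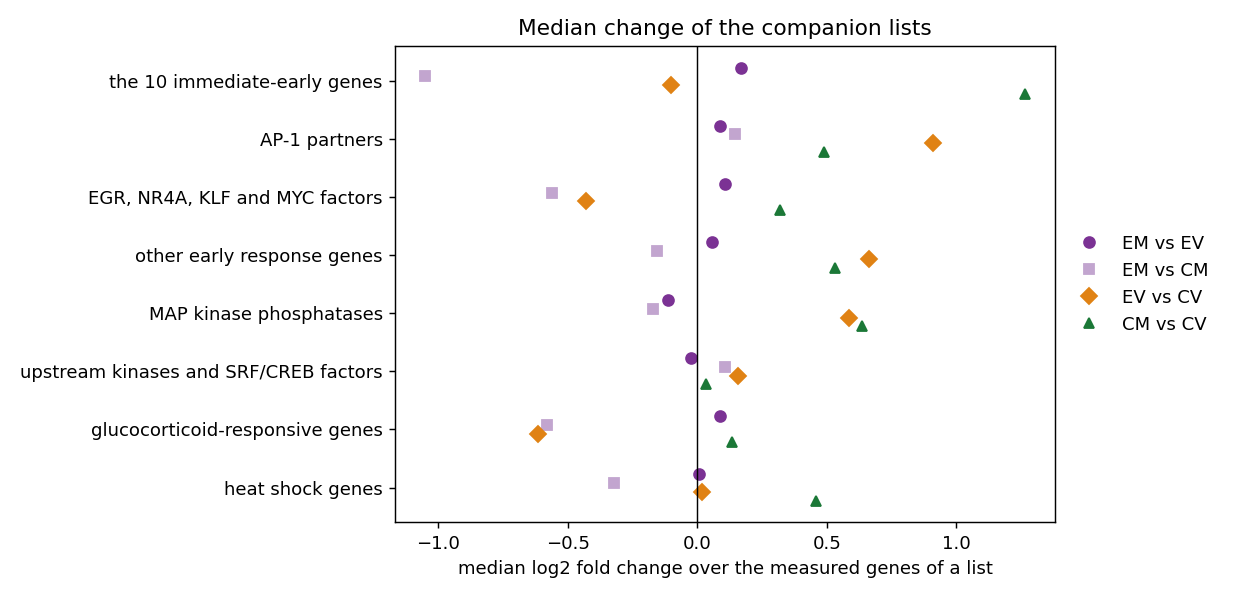
Median log2 fold change over the measured genes of each companion list and over the 10 immediate-early genes, in EM vs EV, EM vs CM, EV vs CV and CM vs CV; the Zfp36 family, with 1 measured gene, is not drawn. The 10 genes have the highest median in CM vs CV (1.26) and the lowest in EM vs CM (-1.05). This order is a description, because the list was proposed with CM vs CV in view and EM vs CM shares the CM libraries. The medians in EM vs EV lie between -0.11 and 0.17.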

How the data were processed

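Liver poly(A) RNA was sequenced in 16 libraries, 4 in each of 4 groups taken from the sample titles. The submitters' processing notes name GRCm39, STAR and Salmon without versions or roles, and the sources used here give no annotation, counting method or strandedness. The authors deposited estimated counts, all whole numbers, which were used without rounding. They do not record sequencing depth exactly, because values of this kind can be rescaled by gene length, so precision was judged from the spread between libraries. No pair of libraries had identical values at more than 3.24% of genes. Gene symbols came from GENCODE M21 names and matched 12692 identifiers.

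Counts were filtered with filterByExpr, scaled with TMM factors and tested with edgeR's quasi-likelihood test (edgeR 4.0.16, R 4.3.3) in a robust fit over the 16 libraries, with a coefficient for each group and 12 residual degrees of freedom. P-values were Benjamini-Hochberg adjusted over all 12918 genes, with calls at 0.05. A standard error is the log2 fold change over the root of its F statistic, and intervals are at 95%. CPM uses the TMM factors, and log2 CPM a prior count of 2. The procedure was tested on simulated counts. The alternatives were RLE factors, library totals, other filters, DESeq2 1.42.0, limma-trend 3.58.1, a fit of the compared groups alone, a block for replicate number, and leaving out each library.

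The members, lists and tests were chosen with earlier results of these data known. Named genes are the 10 members, the 5 genes most like Dusp1 and, from each companion list, genes with the smallest p in EV vs CV (up to 4) or EM vs EV (up to 2), of which a part is printed. Tests were run in all comparisons, but single p-values are printed for members only in EM vs EV and EV vs CV. Same-numbered libraries did not deviate together (0 of 24 correlations over 0.1), so the numbers were not used as pairs. Stellate, cholangiocyte and erythrocyte markers were also counted. In EV vs CV 2 of 7, 2 of 4 and 5 of 5 were called higher, against 25.5% of all genes. There 1 stellate marker was called lower, against 24.9% of all genes. In CM vs CV 0 of these markers were called, against 0.0929% of all genes. The median of the stellate list in EV vs CV was -0.18. Figures were drawn with matplotlib 3.10.9.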

Additional observations from a re-analysis of the deposited data

Results flagged for a closer look

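3 of the 40 sets of 4 libraries checked (each of the 10 genes in each group) held a library whose gap to its nearest neighbour, on the log2 CPM scale and as a share of the group's range, exceeded Dixon's 95% critical value, and chance alone gives about 1 in 20. Dusp1 in EM replicate 2, at 48.6 CPM, lay above the other EM libraries by 0.842 of the range. Without that library Dusp1 in EM vs EV was -0.049 in place of 0.19 on the log2 scale. Fos in CV replicate 2, at 2.14 CPM, lay below the other CV libraries by 0.978 of the range. Jun in EM replicate 4, at 32.7 CPM, lay below the other EM libraries by 0.852 of the range.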

How the results depend on the processing

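In EM vs EV 0 members were called under each of 16 alternatives. The count of members called was otherwise as follows, and nothing is read from it for CM vs CV and the interaction. With library totals it was 4 in EV vs CV, 3 in EM vs CM, 4 in EM vs CV and 1 in CM vs CV. The shares of all genes called were 64.8%, 52.8%, 54% and 0.0619%, in that order. With DESeq2 it was 1 in EV vs CV, 2 in EM vs CV, 6 in CM vs CV and 3 for the interaction. There the shares of all genes were 51.7%, 42.5%, 1.71% and 3.48%. With only the groups compared it was 3 in EV vs CV, 4 in EM vs CV and 0 in CM vs CV, where 6387, 4791 and 2 of all genes were called. With the replicate block it was 1 in EV vs CV, 0 in EM vs CV and 0 in CM vs CV, where 6393, 5156 and 6 of all genes were called. The pairing itself is not borne out, as 6 of 16 libraries correlated best with one of their own number. Leaving out 1 library gave 0 to 1 in EV vs CV, 6 to 7 in EM vs CM, 0 to 1 in EM vs CV, 0 to 3 in CM vs CV and 0 to 1 for the interaction. The numbers of all genes called in these fits were 5868 to 6209, 4195 to 5033, 4543 to 4972, 4 to 39 and 10 to 208, in that order. The cause was not tested beyond the scaling, whose shift of the median of all genes was 0.48 in EV vs CV, 0.38 in EM vs CM and in EM vs CV, and -0.11 in EM vs EV.

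Some members changed sign. Library totals turned Jun (0.12), Junb (0.066) and Ier2 (0.19) in EV vs CV, Junb (0.16) and Ier2 (0.19) in EM vs CV, Klf6 in EM vs EV (-0.062) and Klf6 in EM vs CM (0.29). With limma-trend Egr1 turned in EM vs EV (0.089) and Klf6 in EM vs CM (0.026). With 1 library left out the ranges crossed 0 for Btg2 (-0.22 to 0.61) and Egr1 (-1.02 to 0.097) in EV vs CV, for Dusp1 (-0.049 to 0.30), Zfp36 (-0.015 to 0.28), Egr1 (-0.50 to 0.30), Klf6 (-0.11 to 0.17) and Ier2 (-0.086 to 0.40) in EM vs EV, for Klf6 in EM vs CM (-0.26 to 0.35) and for Jun in EM vs CV (-0.095 to 0.40). No member changed sign in CM vs CV under the 16 alternatives run. The median SD of the members lay between 0.44 and 0.50 with 1 library left out. Over all genes the count called was 218 in EM vs EV (127 with library totals, 566 with DESeq2, 36 to 445 with 1 library left out), 12 in CM vs CV (2 with only the groups compared, 221 with DESeq2) and 17 for the interaction (450 with DESeq2). The replicate block gave 6 in CM vs CV and 79 for the interaction.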

Other observations

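The 3 Gadd45 genes, stress-induced sensors of growth arrest, parted from each other with EE. Gadd45g averaged 131 ± 33 CPM in EV and 11.1 ± 4.3 CPM in CV, Gadd45b 13.6 ± 6.7 CPM in EV and 74.5 ± 20 CPM in CV, and Gadd45a 8.71 ± 5.2 CPM in EV and 38.5 ± 10 CPM in CV (SD, n = 4 each). Gadd45g rose and the other two fell by edgeR's quasi-likelihood test (adjusted p = 6.52e-06, 2.88e-05 and 0.00128). In the mice without EE all 3 were higher in CM without overlap, as were 2.24% of all genes. Gadd45b averaged 188 ± 30 CPM in CM and 74.5 ± 20 CPM in CV. Gadd45a averaged 66.7 ± 10 CPM in CM and 38.5 ± 10 CPM in CV, and Gadd45g 33.5 ± 16 CPM in CM and 11.1 ± 4.3 CPM in CV. None of the 3 passed edgeR's test in CM vs CV (adjusted p = 0.156, 0.552 and 0.164). These genes were chosen for mention after their values were seen.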
